A study of Mus musculus with 18 samples.

Results

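metM-Wnt and M-Wnt, a pair of mouse triple-negative mammary cancer lines, were compared after 72 h in medium with 0 µM folic acid. The samples were chosen by their labels alone: the 3 cultures of each line grown without folic acid, 6 of the 18 samples in the series. The labels give liver metastasis as the tissue of metM-Wnt and mammary tumor as that of M-Wnt. Both groups were grown in RPMI 1640 lacking folic acid, supplemented with dialyzed fetal bovine serum. Control cultures of the same lines had 2.2 µM folic acid per the sample labels (the design text gives 2.2 mM) and regular serum, so medium comparisons cover the change of serum too. The series also holds the line E-Wnt, whose arrays enter the estimate of the spread and give 1 comparison of levels below. The design text calls the 3 samples of a group biological replicates. Each group is a single cell line, so the tests measure the spread between cultures of these lines and not between tumours or metastases.

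Folate carries the one-carbon units that cells use to make purines and thymidylate and to regenerate methionine. Cultured cells take folate from their medium, and growth without it draws on stored folates. E-Wnt and M-Wnt were derived from mammary tumours of mice that express Wnt-1 under the mouse mammary tumour virus promoter. A line taken from a metastasis can differ from its parent line in any medium. Setting the line difference without folic acid beside that in control medium shows which differences were found in both. A call in 1 medium alone does not show that the media differ, so the change between media was tested by itself.

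Total RNA was labelled with Cy5 (red) and hybridised beside Cy3-labelled RNA of NIH3T3 fibroblasts (green), the common reference of every array. Levels below are log2 ratios of sample over reference, and differences are metM-Wnt minus M-Wnt on that scale, ± the SE of the limma model with n = 3 arrays per group. Of 80520 probes on the array, 36268 were well above background in red on all 3 arrays of either group; these gave 36260 features, of which 64 were named genes and each other one a single probe. More probes passed in M-Wnt (35984) than in metM-Wnt (31203), and 30899 passed in both. Mean red intensity was 3722, 3418 and 1964 on the M-Wnt arrays and 2260, 2784 and 2837 on the metM-Wnt arrays, and the part of this signal in the line difference was not tested. Arrays of a group correlated at 0.976 to 0.995 across features, and arrays of different groups at 0.941 to 0.965. The 3 M-Wnt arrays lay on 1 slide, and the metM-Wnt arrays on another 2, so line and slide cannot be told apart here. The same split holds for the scanner files, which list probe sequences for the M-Wnt arrays and not for the metM-Wnt arrays. The lists of epithelial, mesenchymal, hepatocyte, immune cell, endothelial and fibroblast markers had no tested member, so the labelled identity of the cells could not be checked.

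Without folic acid, 3182 features were called (limma, p adjusted by Benjamini-Hochberg across the 36260 features, threshold 0.05), 8.78% of those tested. They comprised 1374 features higher in metM-Wnt (3.79%) and 1808 lower (4.99%). A total of 538 features (1.48%) were called with at least a 2-fold difference, and 384 of these were lower in metM-Wnt (1.06%) against 154 higher (0.425%). The median difference of all features was -0.04, and the median size among called features was 0.65, so most called differences were under 2-fold. The split by direction depended on the scaling: 43.2% of calls were higher in metM-Wnt after loess, 29.8% of 541 calls after median centring alone, and 51.9% of 6067 calls in the red channel alone. Of the 5384 features that passed the filter in only 1 of the lines, 340 were called, 114 higher and 226 lower. Among the 30876 that passed in both, 2842 were called. Probes that passed in M-Wnt alone numbered 5085, against 304 in metM-Wnt alone, so the filter itself favours lower calls among the 5384. Leaving out 1 of the 6 arrays gave 1514 to 2524 calls, with the lowest counts without M-Wnt replicate 2 (1514), M-Wnt replicate 1 (1656) or metM-Wnt replicate 2 (1707).

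**Figure D1:**
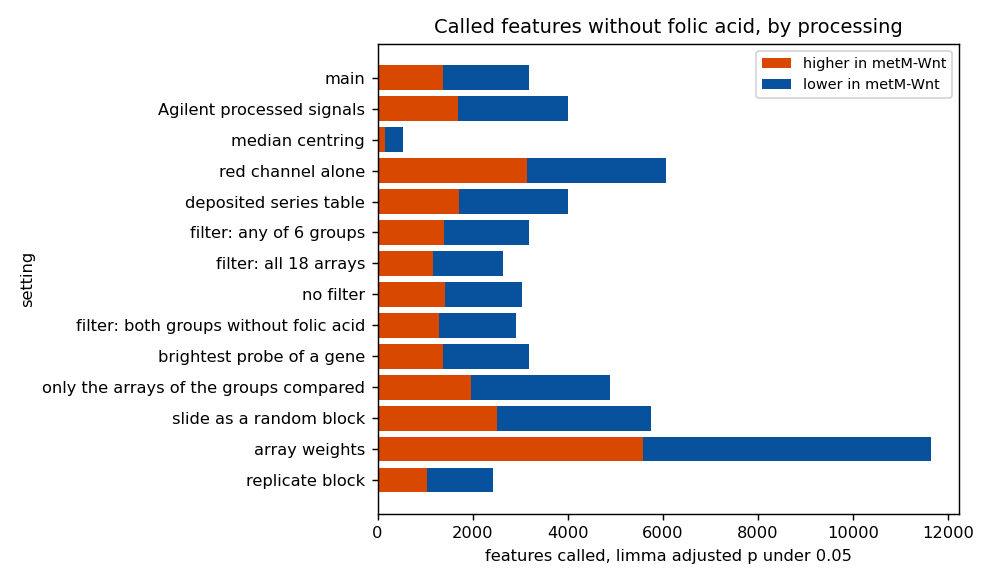
Number of features called without folic acid (x axis) under each processing setting (y axis), split into those higher and lower in metM-Wnt. The main setting gave 3182 calls, median centring 541 and array weights 11651.

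Of the 64 named genes, 8 were called, 12.5% against 8.78% of all features: 6 were higher in metM-Wnt and 2 lower, and the median difference of all 64 was 0.00. All 3 arrays of a line lay beyond the 3 of the other for 24 named genes, 37.5% against 36.2% of all features (34.3% in control medium). None of the 8 differed by 2-fold. The probes of named genes carry an accession of the gene in their IDs, and which strand or transcript of it they read was not checked. The array holds 21737 probes whose IDs start with Mm_ncRNA, a prefix that points to non-coding RNA. Probes with this prefix are among those named by accession, and how many of the named genes rest on them was not counted. The level given for a named gene need not be that of its messenger RNA.

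The named genes higher in metM-Wnt were led by Tmem41b, a lipid scramblase of the endoplasmic reticulum that autophagosome formation needs. Its level without folic acid was 1.40, 1.76 and 1.48 in metM-Wnt and 0.89, 0.82 and 0.54 in M-Wnt. Every metM-Wnt array was above every M-Wnt array, by 0.79 ± 0.17 on average (1.73-fold, limma adjusted p = 0.0066). In control medium the lines overlapped and differed by 0.06 ± 0.17 (adjusted p = 0.86). The M-Wnt mean was 1.70 there and 0.75 without folic acid, against 1.76 and 1.55 in metM-Wnt, but the difference between the media, 0.73 ± 0.24, did not pass (adjusted p = 0.083).

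Macrod2, a hydrolase that removes ADP-ribose from proteins, was at -0.26, 0.01 and -0.31 in metM-Wnt and at -0.928, -0.932 and -0.995 in M-Wnt. The groups did not overlap, and metM-Wnt was higher by 0.76 ± 0.13 (1.70-fold, limma adjusted p = 0.0018). In control medium the order of the lines was the other way, with -0.58, -0.58 and -0.57 in metM-Wnt and -0.55, -0.37 and -0.27 in M-Wnt. The difference there was -0.18 ± 0.13 and did not pass (limma adjusted p = 0.46). The line difference changed between the media by 0.95 ± 0.19 (adjusted p = 0.0075).

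2810021J22Rik, a protein-coding gene on chromosome 11, had levels of 1.44, 1.69 and 1.77 in metM-Wnt and 0.88, 1.03 and 0.83 in M-Wnt. The metM-Wnt arrays were all higher, by 0.72 ± 0.11 (1.65-fold, limma adjusted p = 0.00055). With folic acid M-Wnt was the higher line, at 2.11, 2.17 and 1.96 against 1.63, 1.82 and 1.80, a difference of -0.33 ± 0.11 that was not called (adjusted p = 0.069). The change between media was 1.05 ± 0.15 (2.07-fold, adjusted p = 0.00079).

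Pdcd10, which encodes an adaptor of a kinase and phosphatase complex mutated in cerebral cavernous malformations, showed the same order. Its level was 0.98, 1.30 and 0.72 in metM-Wnt and 0.43, 0.44 and 0.33 in M-Wnt, without overlap, and differed by 0.60 ± 0.16 (1.52-fold, limma adjusted p = 0.025). In control medium the groups overlapped, with means of 0.73 in metM-Wnt and 1.03 in M-Wnt, and the change between media was 0.90 ± 0.22 (adjusted p = 0.025). Another probe that shares at least 25 bases with it read 0.48 ± 0.17 without folic acid and was not called (adjusted p = 0.097). Leaving out any M-Wnt array or metM-Wnt replicate 1 or 2 ended the call of Pdcd10, with adjusted p of 0.072, 0.073 and 0.073 without M-Wnt replicate 1, 2 and 3, and of 0.057 and 0.14 without metM-Wnt replicate 1 and 2. The red channel alone ended it too (0.31, adjusted p = 0.058). For Pdcd10 the call of the change was lost without M-Wnt control replicate 2 or 3, metM-Wnt control replicate 2 or 3, any M-Wnt array without folic acid or metM-Wnt replicate 2 without folic acid (0.75 to 0.92, adjusted p = 0.052 to 0.075), and in the red channel alone (0.51, adjusted p = 0.057). With median centring the changes of Macrod2, 2810021J22Rik and Pdcd10 were 1.21, 1.12 and 1.27 (adjusted p = 0.35, 0.064 and 0.38), and in the fit with a fixed slide term 0.998, 0.74 and 0.98 (adjusted p = 0.17, 0.16 and 0.25), so none was called in either.

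Dnajb9 and Supt4a had metM-Wnt arrays above all M-Wnt arrays in both media. Dnajb9, a co-chaperone of the endoplasmic reticulum that is induced by unfolded proteins, was at 0.90, 0.94 and 0.82 in metM-Wnt and at 0.30, 0.16 and 0.46 in M-Wnt without folic acid. Its groups did not overlap, and the difference was 0.58 ± 0.14 (1.49-fold, limma adjusted p = 0.014). In control medium its difference of 0.38 ± 0.14 did not pass (adjusted p = 0.095), and the change between media was 0.20 ± 0.19 (adjusted p = 0.59). Without M-Wnt replicate 1 or 2 or metM-Wnt replicate 2 the difference was 0.58, 0.51 or 0.55 and was not called (adjusted p = 0.054, 0.084 and 0.060).

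Supt4a, a subunit of the elongation factor that pauses and restarts RNA polymerase II, had levels of 0.38, 0.54 and 0.32 in metM-Wnt and -0.16, -0.11 and 0.05 in M-Wnt. The difference, 0.48 ± 0.14 (1.40-fold, limma adjusted p = 0.040), was of the same size in control medium (0.48 ± 0.14, adjusted p = 0.037). The change between media was 0.00 ± 0.20 (adjusted p = 0.99). Each array left out ended its call without folic acid except M-Wnt replicate 3, with differences from 0.42 without metM-Wnt replicate 2 (adjusted p = 0.17) to 0.53 without metM-Wnt replicate 3 (adjusted p = 0.062); the others were 0.44 and 0.47 without M-Wnt replicate 1 and 2 and 0.50 without metM-Wnt replicate 1. Agilent processed signals also ended it (0.42, adjusted p = 0.067), as did a fit with replicate number as a block (adjusted p = 0.070). In control medium the call was lost without any 1 of the 6 arrays (0.41 to 0.53, adjusted p = 0.060 to 0.12). Median centring gave 0.55 without folic acid and 0.15 in control medium (adjusted p = 0.68 and 0.89), so the like size in both media was not kept.

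Ppid and Defb14 were the named genes lower in metM-Wnt. Ppid, a peptidyl-prolyl isomerase that works with the chaperone Hsp90, was at 0.38, 0.38 and 0.27 in metM-Wnt and at 1.17, 1.10 and 0.83 in M-Wnt without folic acid. The difference was -0.69 ± 0.16 (1.61-fold lower, limma adjusted p = 0.011), and in control medium it was -0.56 ± 0.16 (adjusted p = 0.031), with no overlap in either medium. The change between media was -0.13 ± 0.22 (adjusted p = 0.78). Without M-Wnt replicate 1 or 2 the difference without folic acid was -0.62 or -0.65 and just missed the threshold (adjusted p = 0.061 and 0.055). In control medium it was lost without M-Wnt replicate 2 or 3 (-0.55 and -0.46, adjusted p = 0.099 and 0.15) or metM-Wnt replicate 1 or 3 (-0.44 and -0.61, adjusted p = 0.12 and 0.051), and with median centring (-0.95, adjusted p = 0.21).

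Defb14, a secreted antimicrobial beta-defensin, was at -1.23, -1.71 and -1.90 in metM-Wnt and at -1.13, -1.09 and -0.99 in M-Wnt. The groups did not overlap, though metM-Wnt replicate 1 lay close to the M-Wnt values. The difference of -0.55 ± 0.16 sat at the threshold (limma adjusted p = 0.0498) and lost its call in 11 of 19 alternative settings. These included leaving out M-Wnt replicate 1, 2 or 3 (-0.58, -0.56 and -0.51) or metM-Wnt replicate 2 or 3 (-0.50 and -0.40), with adjusted p from 0.11 to 0.19. Median centring in place of loess ended the calls of all 8 genes, with adjusted p from 0.13 for Dnajb9 to 0.68 for Supt4a; the signs were kept, at 0.55 to 0.78 for the 6 higher genes and -0.73 and -0.58 for Ppid and Defb14.

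**Figure D2:**
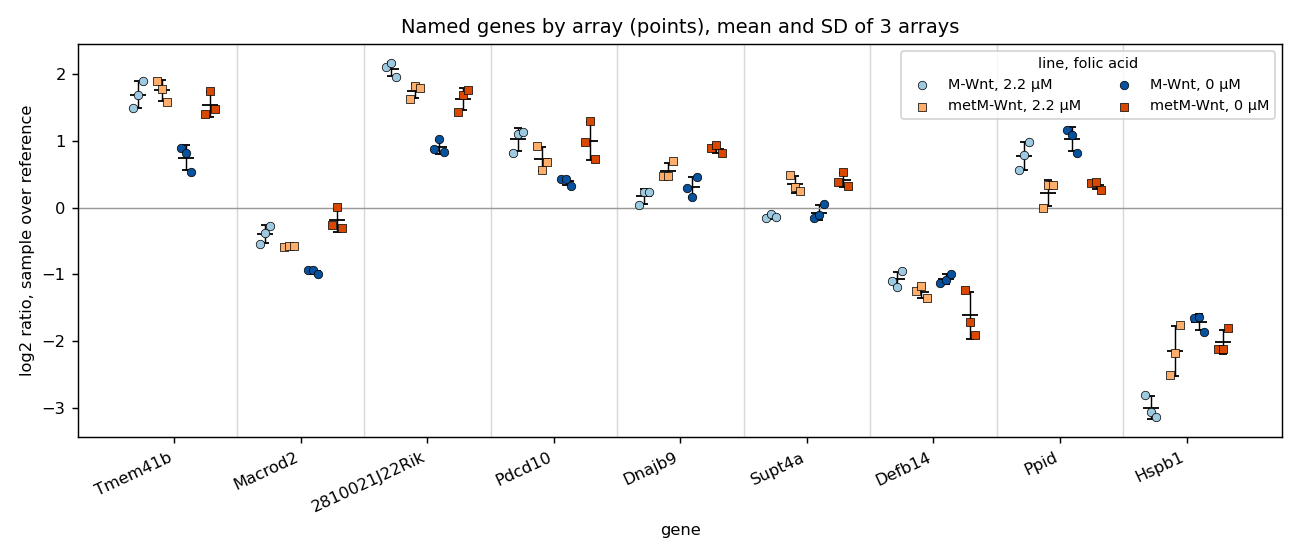
Log2 ratio of sample over reference (y axis) on each array for the 8 genes called without folic acid and for Hspb1 (x axis); points are arrays, bars the mean and SD of 3 arrays. Without folic acid the dark squares (metM-Wnt) and dark circles (M-Wnt) of the 8 called genes do not overlap, while in control medium the light symbols of Tmem41b, Pdcd10 and Defb14 do.

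Hspb1, a small heat shock protein that holds unfolded proteins in solution, was the named gene with the largest change of the line difference between media. Without folic acid its levels were -2.12, -2.11 and -1.81 in metM-Wnt and -1.66, -1.63 and -1.86 in M-Wnt. These overlapped, and the difference of -0.30 ± 0.18 was not called (limma adjusted p = 0.33). In control medium metM-Wnt was at -2.51, -2.17 and -1.76 and M-Wnt at -2.81, -3.06 and -3.13, so all metM-Wnt arrays were higher, by 0.85 ± 0.18 (1.81-fold, adjusted p = 0.0055); with median centring this was 0.42 and not called (adjusted p = 0.60). The change between media was -1.15 ± 0.25 (adjusted p = 0.013); the M-Wnt mean was -2.999 with and -1.71 without folic acid, the metM-Wnt mean -2.15 and -2.01. The change was -0.69 with median centring, -0.66 in the red channel alone and -1.39 in the fit with a fixed slide term, and was called in none of these (adjusted p = 0.70, 0.085 and 0.11). Another probe that shares at least 25 bases with the Hspb1 probe also differed little between the lines without folic acid (-0.33 ± 0.20, adjusted p = 0.34).

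The RefSeq promoter of Hspb1 is shown because this gene is the named one whose line difference changed most, and its family is known for control by heat shock factors. The window runs from 250 bases before to 50 after the start (GRCm38.p6, chr5:135887669-135887968, plus strand), and capitals mark the letters GAANNTTC, a core of the heat shock element that reads the same on both strands.
Hspb1: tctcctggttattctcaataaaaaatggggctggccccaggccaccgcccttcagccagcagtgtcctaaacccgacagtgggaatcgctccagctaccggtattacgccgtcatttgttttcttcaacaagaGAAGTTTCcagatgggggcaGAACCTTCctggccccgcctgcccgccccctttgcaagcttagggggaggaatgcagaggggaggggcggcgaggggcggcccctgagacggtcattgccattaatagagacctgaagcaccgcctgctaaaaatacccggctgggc
The letters occur at 2 places, starting at -117 and -97 with the start base counted as 0. Of 32851 RefSeq promoter windows of this length, 7.86% hold them at least once. This describes the sequence, and binding was not measured.

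Of the 26 gene lists used here, 15 had a tested member, with 22 genes in all. Of these 22, 3 were called higher and 1 lower, 18.2% against 8.78% of all features, and their median difference was 0.07. The lists were chosen with earlier results of these data known, so this share is not an independent result. The list of heat shock genes had 3 tested members: Ppid was called lower, while Hspb1 and the mitochondrial chaperonin Hspd1 did not pass. Hspd1 was at 0.66, 0.65 and 0.64 in metM-Wnt and at 0.93, 0.97 and 1.42 in M-Wnt. Its groups did not overlap, and its difference was -0.46 ± 0.16 (limma adjusted p = 0.086). Dnajb9 was the only tested chaperone of the endoplasmic reticulum.

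The trafficking and autophagy list had 3 tested members. Tmem41b was called higher, and the vesicle fusion protein Sec22b (0.32, limma adjusted p = 0.24) and the Rab GTPase-activating protein Tbc1d16 (-0.20, adjusted p = 0.48) were not called. The value of Tbc1d16 is the mean of 2 probes with opposite signs, at -0.45 and 0.06. In the list of transcription genes Supt4a was called higher, and Ssbp2, which binds single-stranded DNA (-0.19, adjusted p = 0.33), and the RNA polymerase I subunit Twistnb (0.00, adjusted p = 0.98) were not. Ssbp2 was called lower in metM-Wnt in control medium (-0.40 ± 0.12, adjusted p = 0.037), a call lost without any 1 of the 3 M-Wnt arrays or metM-Wnt replicate 1 or 3 (-0.32 to -0.44, adjusted p = 0.051 to 0.14) and with median centring (-0.77, adjusted p = 0.20).

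Gcsh was the only tested gene of folate and one-carbon metabolism; it encodes the H protein of the glycine cleavage system, which feeds one-carbon units into mitochondrial folate. Its levels were -0.03, 0.51 and -0.43 in metM-Wnt and -0.50, -0.56 and -0.07 in M-Wnt. The lines overlapped, with a difference of 0.39 ± 0.23 (limma adjusted p = 0.33). In control medium the difference was -0.45 ± 0.23 (adjusted p = 0.27), and the change between media, 0.84 ± 0.33, did not pass (adjusted p = 0.15).

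None of the other tested list members was called. These included Acaca, which makes malonyl-CoA for fatty acid synthesis (0.43, limma adjusted p = 0.29), Prc1, a microtubule bundler of the mitotic midzone (-0.19, adjusted p = 0.87), the splicing factor Srsf10 (0.23, adjusted p = 0.28) and the thioredoxin-domain protein Txndc9 (0.29, adjusted p = 0.090). The ATP synthase component Atp5md (0.00, adjusted p = 1), the selenoprotein Selenoh (-0.32, adjusted p = 0.57), the aldo-keto reductase Akr1b10 (-0.06, adjusted p = 0.90) and the ubiquitin ligase Rnf125 (-0.06, adjusted p = 0.91) did not pass either. Nor did Slfn3 of the Schlafen family (0.19, adjusted p = 0.61), Wfdc18 (0.15, adjusted p = 0.62) or Rps23rg1 (0.15, adjusted p = 0.57).

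**Figure D3:**
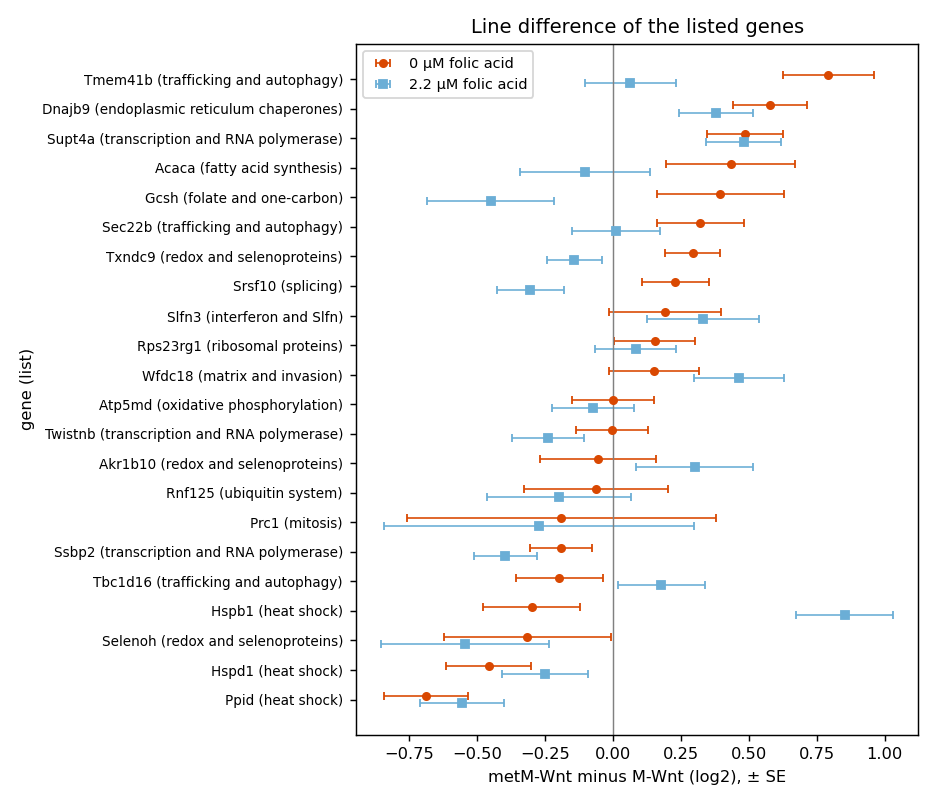
Difference metM-Wnt minus M-Wnt (x axis, log2, ± SE, n = 3 arrays per group) for the 22 tested genes of the lists (y axis), without folic acid (circles) and in control medium (squares). Hspb1 lies at -0.30 without folic acid and 0.85 in control medium, and Supt4a at 0.48 in both.

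Some named genes outside the lists came near the threshold. Ass1, which makes argininosuccinate in the urea cycle and arginine synthesis, was at 0.37, 0.57 and 0.36 in metM-Wnt and at 0.86, 0.95 and 1.80 in M-Wnt. The groups did not overlap, M-Wnt replicate 3 was far above the other 2, and the difference of -0.77 ± 0.24 was not called (limma adjusted p = 0.061). Chmp3, a subunit of the membrane-cutting ESCRT-III complex, was at 0.95, 1.27 and 0.61 in metM-Wnt and at 0.24, 0.21 and 0.59 in M-Wnt, a difference of 0.60 ± 0.20 that did not pass (adjusted p = 0.069). A second probe sharing bases with the Chmp3 probe was called, at 0.86 ± 0.24 (adjusted p = 0.037). The mitochondrial complex I subunit Ndufs6 (-0.34 ± 0.11, adjusted p = 0.065) and Pate14 (-0.49 ± 0.16, adjusted p = 0.067) were not called.

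More probes could be placed by their sequence: 345 matched a single RefSeq promoter window over at least 40 bases, and 152 of these were tested. This way of naming was chosen after the files were seen. A probe called antisense below carries the strand opposite to the gene, and its value is not the level of the gene's messenger RNA. Sense probes before the start, as at Trex1 (bases -165 to -106) and Leng9 (-204 to -145), need not read that messenger RNA either. Of the 152 probes, 16 were called without folic acid (10.5%, against 8.78% of all features), 11 higher and 5 lower in metM-Wnt, and their median difference was -0.03.

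The largest differences among the called probes came from 3 on the antisense strand at the start of Ralgapa1, which encodes the catalytic subunit of a complex that switches off Ral GTPases. Their sequences are shown because they overlap, so they are repeat readings of a single site and not independent findings; capitals mark the 45 bases that all 3 share. They lie on chromosome 12 (GRCm38.p6) at chr12:55821486-55821545, chr12:55821485-55821544 and chr12:55821493-55821537, across the Ralgapa1 start, and no other RefSeq gene overlaps there.
Ralgapa1 antisense, probe 1: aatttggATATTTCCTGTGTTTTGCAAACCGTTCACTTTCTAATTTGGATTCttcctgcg
Ralgapa1 antisense, probe 2: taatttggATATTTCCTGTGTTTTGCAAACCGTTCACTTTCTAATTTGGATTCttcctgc
Ralgapa1 antisense, probe 3: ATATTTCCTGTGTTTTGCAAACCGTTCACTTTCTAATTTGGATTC
The stretch covers positions -21 to 23 of the gene, with the start base counted as 0. In the RefSeq promoter window of Ralgapa1 (chr12:55821467-55821766, minus strand) the same bases, read on the gene's strand, are in capitals.
Ralgapa1: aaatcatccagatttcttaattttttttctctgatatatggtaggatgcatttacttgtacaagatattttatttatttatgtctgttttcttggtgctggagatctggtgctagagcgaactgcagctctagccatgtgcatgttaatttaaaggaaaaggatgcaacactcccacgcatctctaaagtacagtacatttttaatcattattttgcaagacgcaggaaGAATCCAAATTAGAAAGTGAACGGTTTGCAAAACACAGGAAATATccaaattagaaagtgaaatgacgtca

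Probe 1 read -0.85, -0.66 and -0.86 in metM-Wnt and -1.91, -2.07 and -1.59 in M-Wnt without folic acid. The metM-Wnt arrays were all higher, by 1.07 ± 0.14 (limma adjusted p = 0.00011). Probe 2 differed by 0.96 ± 0.15 (adjusted p = 0.00086) and probe 3 by 0.96 ± 0.17 (adjusted p = 0.0016), and all 3 kept their calls in each alternative setting run for this comparison, median centring included. With folic acid the differences were 0.23, 0.10 and 0.20, none called. The change between media was called for probe 1 (0.84 ± 0.19, adjusted p = 0.016) and probe 2 (0.85 ± 0.22, adjusted p = 0.030) and not for probe 3 (0.76 ± 0.24, adjusted p = 0.074). With a fixed slide term the change of probe 1 was 0.90 and not called (adjusted p = 0.18). It was also lost without M-Wnt control replicate 3 (0.78, adjusted p = 0.054) or M-Wnt replicate 2 without folic acid (0.73, adjusted p = 0.052), and that of probe 2 without M-Wnt control replicate 2 or 3, metM-Wnt control replicate 3, M-Wnt replicate 1 or 2 without folic acid or any metM-Wnt array without folic acid (0.73 to 0.87, adjusted p = 0.054 to 0.090). With median centring the changes of probes 1 and 2 were 0.92 and 0.96 and not called (adjusted p = 0.27 for both). Agilent processed signals gave larger differences without folic acid, 1.73, 1.62 and 1.69 for probes 1, 2 and 3. For probe 1 the M-Wnt mean was -1.08 in control medium and -1.86 without folic acid, and the metM-Wnt mean -0.85 and -0.79.

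The next 4 probes are shown because the comparisons that follow turn on them, and each lies before the start that its window is built on; for Sgf29 capitals mark the 59 of 60 bases that match the window.
Sgf29 antisense (chr7:126649186-126649244): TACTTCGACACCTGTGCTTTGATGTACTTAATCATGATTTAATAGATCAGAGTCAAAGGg
Sec62 antisense (chr3:30792700-30792759): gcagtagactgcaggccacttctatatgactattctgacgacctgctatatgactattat
Trex1 sense (chr9:109059829-109059888): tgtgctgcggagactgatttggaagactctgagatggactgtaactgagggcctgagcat
Leng9 sense (chr7:4150017-4150076): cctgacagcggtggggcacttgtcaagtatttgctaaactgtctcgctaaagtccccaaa
The Sgf29 probe lies at -123 to -65, inside the annotated span of Sgf29. The Sec62 and Leng9 probes lie in no annotated gene, and the Trex1 probe lies within Atrip and the Atrip-Trex1 readthrough gene.

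Sgf29, a reader of methylated histone H3 in the SAGA acetyltransferase complex, gave the largest change between media among the 16 called probes. Its antisense probe read -0.89, -0.93 and -1.06 in metM-Wnt and -1.31, -1.37 and -1.50 in M-Wnt without folic acid, so metM-Wnt was higher by 0.43 ± 0.11 (limma adjusted p = 0.021). In control medium it read -1.16, -1.22 and -1.10 in metM-Wnt and -0.32, -0.29 and -0.36 in M-Wnt, a difference of -0.83 ± 0.11 (adjusted p = 0.00013). The groups overlapped in neither medium, and the order of the lines was opposite. The change was 1.27 ± 0.16 (adjusted p = 0.00015), 1.31 in the fit with a fixed slide term (adjusted p = 0.022) and 1.54 with median centring, where it was not called (adjusted p = 0.071). The call without folic acid was lost without M-Wnt replicate 2 or 3 (0.45 and 0.38) or metM-Wnt replicate 1 or 2 (0.40 and 0.42), with adjusted p from 0.067 to 0.078.

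The antisense probe of Sec62, a subunit of the channel through which proteins enter the endoplasmic reticulum, read -0.46, -0.26 and -0.63 in metM-Wnt and -1.41, -1.49 and -0.85 in M-Wnt. The lines did not overlap and differed by 0.80 ± 0.16 (limma adjusted p = 0.0055). In control medium they differed by 0.08 ± 0.16 (adjusted p = 0.82), and the change between media did not pass (0.72 ± 0.23, adjusted p = 0.081).

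The probes at Leng9 and Trex1 were lower in metM-Wnt. The Leng9 probe read -1.82, -1.95 and -1.88 in metM-Wnt and -1.12, -1.33 and -1.07 in M-Wnt, a difference of -0.71 ± 0.12 without overlap (limma adjusted p = 0.0016). The probe at Trex1, a nuclease that degrades cytosolic DNA, read -0.65, -0.52 and -0.61 in metM-Wnt and -0.08, -0.08 and -0.26 in M-Wnt, a difference of -0.45 ± 0.09 without overlap (adjusted p = 0.0046). With folic acid the differences were 0.03 ± 0.12 and 0.24 ± 0.09, neither called (adjusted p = 0.92 and 0.10). The changes between media were -0.74 ± 0.18 (adjusted p = 0.020) and -0.70 ± 0.13 (adjusted p = 0.0039), and that of Leng9 was lost without M-Wnt control replicate 2 or 3, metM-Wnt control replicate 3, M-Wnt replicate 1 or 3 without folic acid or metM-Wnt replicate 2 without folic acid (-0.66 to -0.73, adjusted p = 0.054 to 0.060). Median centring gave changes of -0.64 and -0.36 (adjusted p = 0.29 and 0.83), and the red channel alone -0.42 for Trex1 (adjusted p = 0.12). With a fixed slide term they were -0.72 and -0.81 (adjusted p = 0.32 and 0.097). The Trex1 difference without folic acid was -0.21 in the red channel alone and not called (adjusted p = 0.20). Median centring ended the calls of the Sgf29, Sec62 and Trex1 probes (0.42, 0.69 and -0.44, adjusted p = 0.66, 0.12 and 0.66), and not that of the Leng9 probe. Agilent processed signals gave differences without folic acid of -1.54 for Leng9 and 1.52 for Sec62, about 2 times the values above, and a change between media of -1.34 for Leng9.

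**Figure D4:**
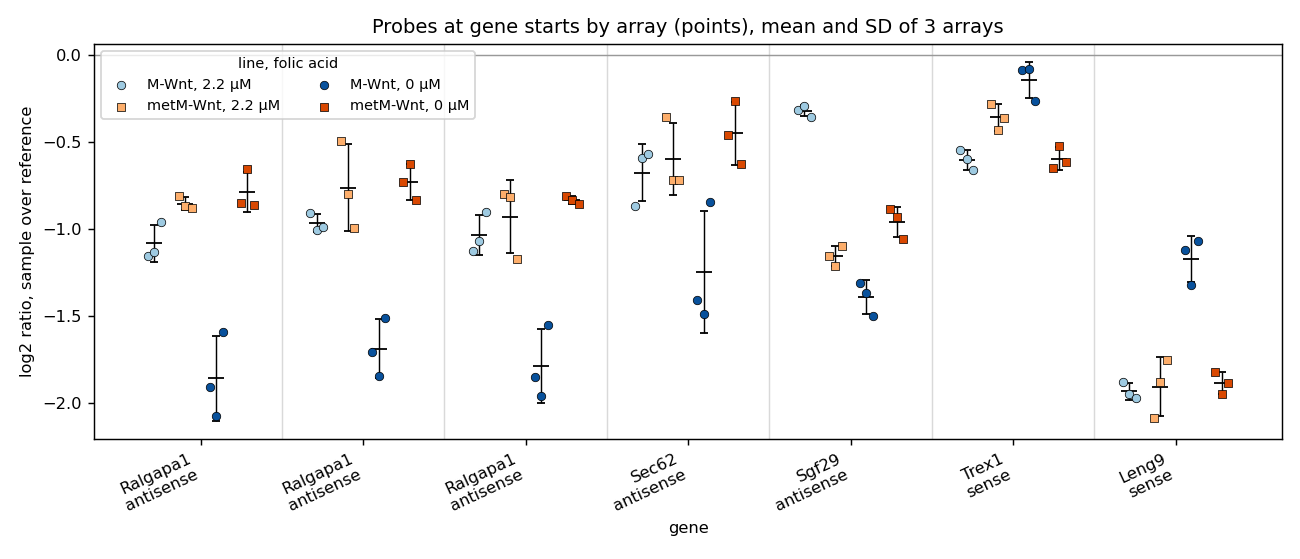
Log2 ratio of sample over reference (y axis) on each array for the probes at the starts of Ralgapa1, Sec62, Sgf29, Trex1 and Leng9 (x axis); points are arrays, bars the mean and SD of 3 arrays. The M-Wnt arrays without folic acid (dark circles) lie beyond all arrays of the other 3 groups for Ralgapa1, Trex1 and Leng9, and at Sgf29 the M-Wnt arrays in control medium stand highest.

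The other 9 called probes at gene starts differed by up to 0.74 in size without folic acid. Cisd3 (sense, 0.65 ± 0.14, limma adjusted p = 0.0068), a mitochondrial iron-sulphur protein, was the one also called in the same direction in control medium (0.54, adjusted p = 0.017), and its probe lies within Mllt6. Probes at 1700028E10Rik (antisense, 0.74, adjusted p = 0.00041), Psme3ip1 (sense, 0.59, adjusted p = 0.013), Taco1 (antisense, 0.55, adjusted p = 0.022), Gm39898 (sense, 0.46, adjusted p = 0.033) and 1600012H06Rik (antisense, 0.43, adjusted p = 0.017) were higher in metM-Wnt. Those at Gm42008 (antisense, -0.60, adjusted p = 0.0093), Pdia2 (sense, -0.60, adjusted p = 0.027) and Gm51807 (antisense, -0.47, adjusted p = 0.023) were lower. Median centring ended the calls of all 9. Among arrays without folic acid, leaving out M-Wnt replicate 2 ended 7 of these calls, those of Psme3ip1 (0.55), Taco1 (0.51), Gm39898 (0.41), 1600012H06Rik (0.40), Gm42008 (-0.56), Pdia2 (-0.62) and Gm51807 (-0.43), with adjusted p from 0.051 to 0.15. Leaving out metM-Wnt replicate 2 ended those of Psme3ip1 (0.55), Taco1 (0.55), Gm39898 (0.49), 1600012H06Rik (0.40) and Pdia2 (-0.53), and metM-Wnt replicate 3 those of Taco1 (0.49), Gm39898 (0.38), 1600012H06Rik (0.41) and Gm51807 (-0.46). M-Wnt replicate 1 ended those of Taco1 (0.54), Gm39898 (0.47), Pdia2 (-0.64) and Gm51807 (-0.46), M-Wnt replicate 3 those of 1600012H06Rik (0.40) and Pdia2 (-0.53), and metM-Wnt replicate 1 those of Pdia2 (-0.60) and Gm51807 (-0.43). In the red channel alone the Gm39898 probe was at -0.21, the other direction (adjusted p = 0.40).

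Probes without a gene name or position gave the largest differences. A_51_P328631 read 4.34, 4.84 and 4.60 in metM-Wnt and 0.22, 0.15 and 0.18 in M-Wnt without folic acid. The difference of 4.41 ± 0.15 (limma adjusted p = 3.9e-11) was 4.40 ± 0.15 in control medium. A_51_P260740 was higher by 4.04 ± 0.31 (4.45 in control medium). A_51_P145453 read -4.82, -5.01 and -5.48 in metM-Wnt and 0.20, 0.32 and 0.57 in M-Wnt. It differed by -5.46 ± 0.25 (limma adjusted p = 1.2e-09) and A_52_P362360 by -4.83 ± 0.22, against -4.94 and -4.55 in control medium. The change between media passed for none of these 4 (adjusted p = 0.99, 0.62, 0.41 and 0.64 in the same order), and each kept its call without folic acid in every alternative setting run.

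The comparison in control medium uses none of the 6 arrays grown without folic acid, but it shares slides with them. M-Wnt control replicate 3 lay on the slide of the M-Wnt arrays without folic acid. The metM-Wnt replicate 1 without folic acid lay on the slide of the metM-Wnt control arrays. In both media the lines differed in slide and in scanner file type, so line and these effects cannot be told apart in calls of the same sign. There 3766 features were called (10.4%), 2033 higher (5.61%) and 1733 lower (4.78%) in metM-Wnt, with at least a 2-fold difference for 646 (1.78%), of which 484 (1.33%) were higher. Of calls there 54.0% were higher after loess and 37.4% of 802 calls after median centring. Features called in both media with the same sign numbered 743, which is 23.4% of the calls without folic acid and 19.7% of those in control medium; 372 were higher and 371 lower. Another 278 were called in both with opposite signs, 185 of them lower without folic acid and higher in control medium. Over all features 51.8% had the same sign in both media, against 63.6% of those called without folic acid and 71.4% of those called there at 2-fold or more.

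The change of the line difference between media, tested as an interaction, was called for 2080 features (5.74%): 848 (2.34%) in the direction of metM-Wnt being relatively higher without folic acid and 1232 (3.4%) in the other direction. At an unadjusted p under 0.05 there were 7692 (21.2%). Of the 538 features called at 2-fold or more without folic acid, 227 also had a called change between media. These were 46 of the 154 higher (29.9%) and 181 of the 384 lower (47.1%), against 5.74% of all features. The change is computed from the same arrays, so choosing large differences raises these shares by construction. Of calls for the change 40.8% were higher after loess, 35.8% of 232 after median centring, 55.6% of 2265 in the red channel alone and 19.3% of 197 in the fit with a fixed slide term. Median centring moved the median of all features from 0.04 to -0.16 in control medium and from -0.07 to 0.12 for the change.

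Features called in both media (limma adjusted p under 0.05) and at least 2-fold apart in each fell into 3 sets, described here as they were found. In 72 features (0.199% of those tested) metM-Wnt was higher in both media, and in 81 (0.223%) it was lower in both. In 81 others (0.223%) it was lower without folic acid and higher in control medium, and 0 showed the reverse. For the set that turned, the median level in M-Wnt was -0.62 in control medium and 2.05 without folic acid, and in metM-Wnt 1.72 and 0.44. The E-Wnt medians of the same features were 0.67 and 0.02. The order of M-Wnt and metM-Wnt in each medium follows from how these features were picked.

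The largest changes between media came from this set. A_51_P487690 read 1.35, 1.23 and 1.20 in metM-Wnt and 4.40, 4.25 and 3.91 in M-Wnt without folic acid, and 3.21, 2.67 and 4.04 against -0.59, -0.37 and -0.83 in control medium. A_51_P164219 read 0.46, 0.33 and 0.24 against 2.45, 2.55 and 2.44 without folic acid, and 2.81, 1.73 and 3.05 against -1.97, -2.17 and -2.31 in control medium. For both the order of the lines was turned with no overlap in either medium, and the changes were -6.83 ± 0.62 (limma adjusted p = 1.2e-05) and -6.81 ± 0.47 (adjusted p = 2e-06).

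In the other direction A_51_P184680 read 1.25, 1.25 and 1.17 in metM-Wnt and -0.81, -0.88 and -0.68 in M-Wnt without folic acid, and 1.50, 1.23 and 1.29 against 2.03, 2.17 and 2.16 in control medium. Its change between media was 2.79 ± 0.16 (limma adjusted p = 3.7e-07), and that of A_52_P348287 was 2.49 ± 0.21 (adjusted p = 9.7e-06), or 3.75 with Agilent processed signals. In both cases the M-Wnt values moved more between the media than the metM-Wnt values. These 4 changes kept their calls under every setting run, a fixed slide term and values within slides among them.

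**Figure D5:**
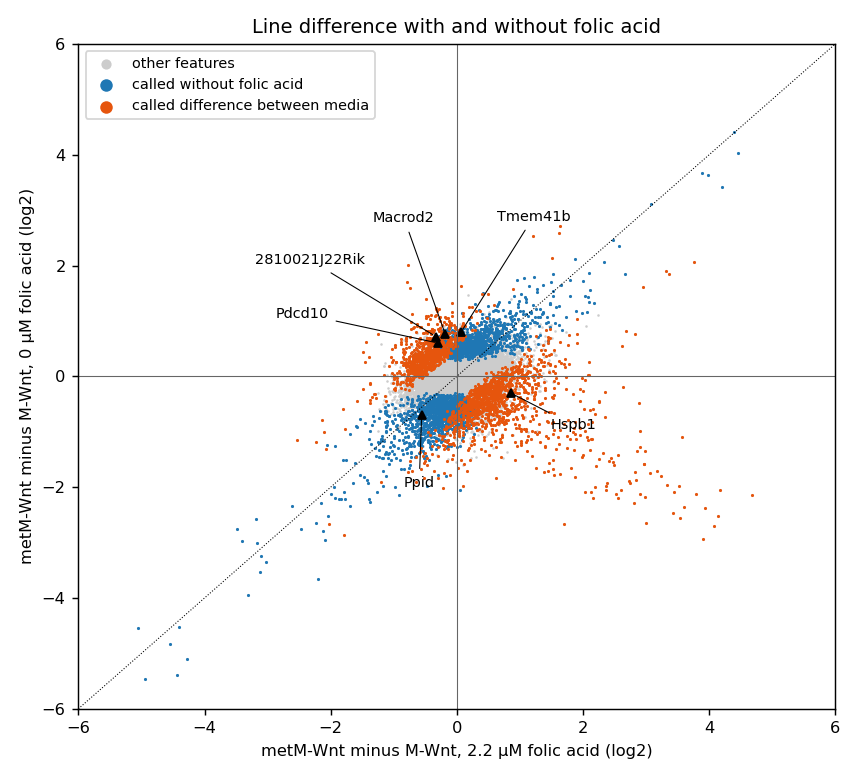
Difference metM-Wnt minus M-Wnt without folic acid (y axis, log2) against that in control medium (x axis, log2) for the 36260 features; blue points were called without folic acid, orange points had a called change between media, and triangles mark 6 named genes. Features along the dotted line of equality differ alike in both media, and an arm of orange points at the lower right holds the 81 features that were lower without folic acid and higher in control medium.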

How the data were processed

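Each deposited array file gives the intensity of every spot and of its local background in red and green, written by Agilent Feature Extraction 10.7.3.1 per the submitters' processing notes; its processed signals, per the file headers, had background removed and dyes balanced. The log10 values of the deposited series table equal each array's own red over green log ratio to within 0.005, with a median of 0 in each column; they served as an alternative. Intensities were background-corrected (normexp, offset 50), loess-normalised within arrays and averaged over spots in limma 3.58.1 (R 4.3.3). One model of 6 group means over 18 arrays was fitted (12 residual, 3.92 prior degrees of freedom); 20 probes with a missing value were left out. The model was also run on simulated data with independent noise and no slide or array effects, which cannot show how it handles such effects. Every adjusted p is limma's.

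No file names a probe's gene: 220 probes matched 157 RefSeq symbols (GRCm38.p6) through an accession in their ID. Named genes are up to 12 called each way (6 for the change between media), by size, with non-overlapping arrays, plus list members; other names were chosen after their values were seen. Members and lists were chosen with earlier results of these data known. Same-numbered arrays correlated at -0.312, -0.229 and -0.287 in their deviations, so replicate numbers do not pair them. Array number and signal over background limit precision: 40.9% to 53.7% of probes per array were above background, and no spot was saturated. Sequences are from the scanner files and RefSeq. Figures used matplotlib.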

Additional observations from a re-analysis of the deposited data

Results flagged for a closer look

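The difference between metM-Wnt and M-Wnt was not alike in the media with and without folic acid for 2080 features, by limma's test of the interaction (adjusted p under 0.05, 5.74% of features). Among named genes, the change of the line difference, without folic acid minus control medium, was 1.05 for 2810021J22Rik, 0.95 for Macrod2, 0.90 for Pdcd10 and -1.15 for Hspb1. With slide as a fixed block these were 0.74, 0.998, 0.98 and -1.39, none called (adjusted p = 0.16, 0.17, 0.25 and 0.11). That fit rests on few arrays, since slide 3 holds 1 M-Wnt control array and slide 4 holds 1 metM-Wnt array without folic acid.

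Among probes at gene starts the change was 1.27 for Sgf29 (antisense), 0.84 and 0.85 for overlapping Ralgapa1 probes (antisense), 0.72 for 1700028E10Rik (antisense), 0.67 for Gm39898 (sense) and 0.58 for 1600012H06Rik (antisense). It was -0.81 for Gm42008 (antisense), -0.74 for Leng9 (sense) and -0.70 for Trex1 (sense). Of these 9, only the Sgf29 probe kept its call with slide as a fixed block. Among probes with no name it was 2.79 for A_51_P184680, 2.49 for A_52_P348287, -6.83 for A_51_P487690 and -6.81 for A_51_P164219.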

How the results depend on the processing

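The count of 3182 calls without folic acid was 541 with median centring, 6067 in the red channel alone, 4896 when only the compared arrays were fitted, 5754 with slide as a random block and 11651 with array weights. In control medium 3766 became 802 with median centring, 6566 with the random slide block and 11821 with array weights. For the change between media 2080 became 232 with median centring, 4541 when only the compared arrays were fitted, 3641 with the random slide block, 11381 with array weights, 197 with slide as a fixed block and 250 within slides. Leaving out 1 array gave 1514 to 2524, 1981 to 3128 and 1091 to 2511 calls; in control medium the counts were lowest without M-Wnt control replicate 2 (1981) or 3 (2026) and metM-Wnt control replicate 3 (2492), and the change fell to 1091 and 1129 without those M-Wnt arrays. The cause was not tested. The estimated correlation within slides was -0.144. A replicate block gave 2436, 3000 and 1497 calls and ended 9 of the calls tracked singly, among them Supt4a and Defb14; the replicate numbers were not shown to pair the arrays. The filters, processed signals, the series table and the brightest probe kept each count within 1.5 times; the filter on both groups was added after seeing the data.

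Of 53 calls of named genes and probes under these alternatives, 931 of 1129 values kept their direction and call, 196 lost the call, and 2 reversed: the Gm39898 sense probe in the red channel alone, at -0.21 without folic acid and -0.15 for the change. Median centring ended 37 of the 53 calls. Line and slide cannot be told apart in either line comparison, so neither has a fixed-block or within-slide value.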

Other observations

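Probes whose IDs start with VIRS made up 1693 of the tested features. Without folic acid 78 of them were called lower in metM-Wnt and 4 higher, so 4.84% of them were called, against 8.78% of all features, and 95.1% of their calls were lower, against 56.8% of all calls. The median difference of the 78 was -0.90 without folic acid and -0.31 in control medium, where 14 were called lower and 2 higher, and a change between media was called for 11. The filter favours lower calls among probes that passed in M-Wnt alone, and how many of the 1693 did so was not counted. The part of the filter in this split was thus not tested. What these probes read was not checked.

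Where tested probes shared at least 25 bases on the same strand, their line differences without folic acid correlated at 0.858 over 2248 pairs, and of 153 pairs with both probes called 152 had the same sign. Over 58 pairs on opposite strands the correlation was -0.01, and no pair had both called. These pairs are probes of the same arrays and not independent replicates.

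With the 29543 tested probes whose IDs start with A_51 or A_52 split into 4 parts of like size by GC content, the share of calls that were higher in metM-Wnt was 52.1%, 42.8%, 40.2% and 29.0% from the lowest to the highest. The median difference of all probes in these 4 ran from -0.01 to -0.06 without folic acid and from 0.00 to 0.10 in control medium. Whether base composition has a part in the direction of the calls was not tested.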
